A study of Mus musculus with 80 samples.

Results

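The comparison described here is the top dose step of a feeding study in mouse liver: 4 frozen livers from animals given 6000 ppm of di(2-ethylhexyl) phthalate (DEHP), animals 29B, 44A, 64C and 8C, against 4 frozen livers from animals given 3000 ppm, animals 35A, 67C, 71A and 9A. Its members are these 8 libraries of the 80 in the series, chosen by dose and preparation alone. The 16 animals of the DEHP experiment were B6C3F1 males (the cross of C57BL/6 and C3H common in toxicology), 4 weeks old per the labels, with 4 animals at each of 0, 1500, 3000 and 6000 ppm in the feed for 7 days. They carried no engineered allele and received no other agent. RNA was taken from about 20 mg of frozen tissue of mixed lobes, and stranded libraries of total RNA were made after removal of ribosomal RNA. Formalin-fixed, paraffin-embedded (FFPE) tissue of the same animals was sequenced too and gives a second preparation of the same mice, not further mice. The question is which genes had levelled off by 3000 ppm, which moved further at 6000 ppm and which turned back.

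DEHP is a plasticizer whose metabolites activate the nuclear receptor PPAR alpha, which in rodent liver switches on peroxisomal and mitochondrial fatty acid oxidation, omega-hydroxylation by the Cyp4a enzymes, fatty acid uptake and peroxisome growth. Strong activators also drive hepatocytes into the cell cycle and lower the output of acute phase proteins. A separate pair of nuclear receptors, CAR and PXR, senses foreign chemicals and controls drug-metabolising enzymes; Cyp2b10 is the usual marker of CAR and Cyp3a11 of PXR.

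The 8 compared libraries held between 16582951 and 27114793 expected counts, and the depth of the 6000 ppm libraries lay inside that of the 3000 ppm libraries. Liver identity was plain in all of them: albumin (Alb) stood at 36442, 36898, 39752 and 44235 CPM (counts scaled to library size with TMM) at 3000 ppm and at 41414, 43888, 32157 and 44933 CPM at 6000 ppm. Several libraries stood apart. Among the 16 frozen DEHP libraries, 29B lay on the control side of the first principal component (28% of the variance, score -13.9, against 18.7 to 29.1 for the other 3 at 6000 ppm and 12.2 to 28.8 at 3000 ppm). Library 40A, a 1500 ppm liver, lay alone on the second component (17.6% of the variance, score 83.1, against -21.6 to 8.5 for the others). It is outside the 8 compared libraries, but it enters the estimate of the spread, the filter and all 1500 ppm values. Library 67C had 11.7% of its counts on transcripts named only by clone accessions, against 6.79% to 9.87% in the other 7. Within a dose, the frozen profiles of 35A and 67C did not resemble their own FFPE partners most (r 0.08 and 0.13 over 8784 genes), while the other 6 compared animals did (r 0.35 to 0.76), so which 3000 ppm animal each FFPE library of this group belongs to is uncertain. The deposited column names open with a code whose meaning is not given in the sources used here: V12161 for 71A and 29B, H36450 for 67C, 9A and 44A, and 3 other codes for the other 3 compared libraries. It is called the column prefix here and used to split the libraries.

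No gene of 13802 tested differed between 6000 and 3000 ppm at an adjusted p under 0.05 in edgeR's quasi-likelihood test, higher (0%) or lower (0%). At an unadjusted p under 0.05, 862 genes were higher (6.25%) and 884 were lower (6.4%), and DESeq2 on the same counts called 20 genes, 13 higher and 7 lower. The smallest adjusted p in edgeR was 0.318, of Cyp2b10. The step was small for most genes: the median log2 difference was 0.006, and for 10905 genes (79%) the 95% interval of the difference lay inside a 2-fold change in either direction, the range taken here as a plateau. For the other 2897 genes the interval reached past 2-fold: for a few, such as Cyp2b10, it lay wholly outside, and for the rest it left a plateau and a further step unresolved. In FFPE tissue edgeR also called 0 of 13581 genes, with 452 higher (3.33%) and 491 lower (3.62%) at an unadjusted p under 0.05, DESeq2 called 1, Cyp2b10, and Cyp2b10 again had the smallest adjusted p in edgeR, 0.0922. In frozen tissue all 4 libraries at 6000 ppm lay above all 4 at 3000 ppm in 375 genes (2.72%) and below them in 620 (4.49%). For scale, the first dose already separated many genes from the controls: 599 were higher (4.34%) and 296 lower (2.14%) at 1500 ppm, 1127 (8.17%) and 895 (6.48%) at 3000 ppm, and 973 (7.05%) and 652 (4.72%) at 6000 ppm.

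The set best suited to the question is the genes called at 1500 against 0 ppm, because that choice uses the 8 compared libraries only through the shared estimate of the spread. Of the 599 genes higher at 1500 ppm, 510 (85.1%) had a 6000 against 3000 ppm interval inside 2-fold, 89 had an interval that reached past 2-fold, Cyp2b10 among them with its whole interval outside, and none was called in either direction. At an unadjusted p under 0.05, 34 of the 599 were higher and 20 lower, against 6.25% and 6.4% of all genes. Their median log2 difference from 0 was 0.82 at 1500 ppm, 0.89 at 3000 ppm and 0.88 at 6000 ppm, and the median of the top step itself was 0.03 (quartiles -0.11 and 0.19). Of the 296 genes lower at 1500 ppm, 230 (77.7%) were inside 2-fold and 66 reached past it. Their median difference from 0 was -0.77, -0.85 and -0.76 at the 3 doses, the median top step was 0.04 (quartiles -0.18 and 0.29), and 36 were higher and 28 lower at an unadjusted p under 0.05. Both shares inside 2-fold were close to the 79% over all genes, and the 2-fold width is larger than the median response of these genes, so the shares say nothing particular about them. Of those that had moved by at least 2-fold at 1500 ppm, 141 of 229 raised and 27 of 89 lowered genes were inside 2-fold. Inside 1.5-fold were 346 of the 599 and 134 of the 296. Both sets shrink without 40A, to 368 raised genes with 309 inside 2-fold and 126 lowered genes with 99 inside. Steps back among the lowered genes included Cxcl14, a chemokine (a log2 difference of -3.45 at 1500 from 0 ppm and of 2.86 ± 0.77 at the top step), and Slc13a5, the citrate transporter (-2.95 and then 2.31 ± 0.84), while Mycn, a transcription factor of the Myc family, gave -1.45 and then 1.18 ± 0.28. Among the raised genes, Kif20a, a kinesin of cell division, had a further difference in the same direction (2.56 and then 1.62 ± 0.52), as did Serinc2 (2.55 and then 0.66 ± 0.19). The median rise of the cell cycle list at this step rests on a single top-dose animal, as given below. Whether Kif20a does too was not tested. Genes also went the other ways, among the 20 raised and 28 lowered genes that were lower at an unadjusted p under 0.05 in edgeR. Prex2, a raised gene, turned back (0.72 and then -0.51 ± 0.12). Enpp2, a lowered gene, fell further (-0.57 and then -0.47 ± 0.14). These genes were picked after their values were seen, and the first 5 of them each had an adjusted p of 0.337 in edgeR.

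**Figure D1:**
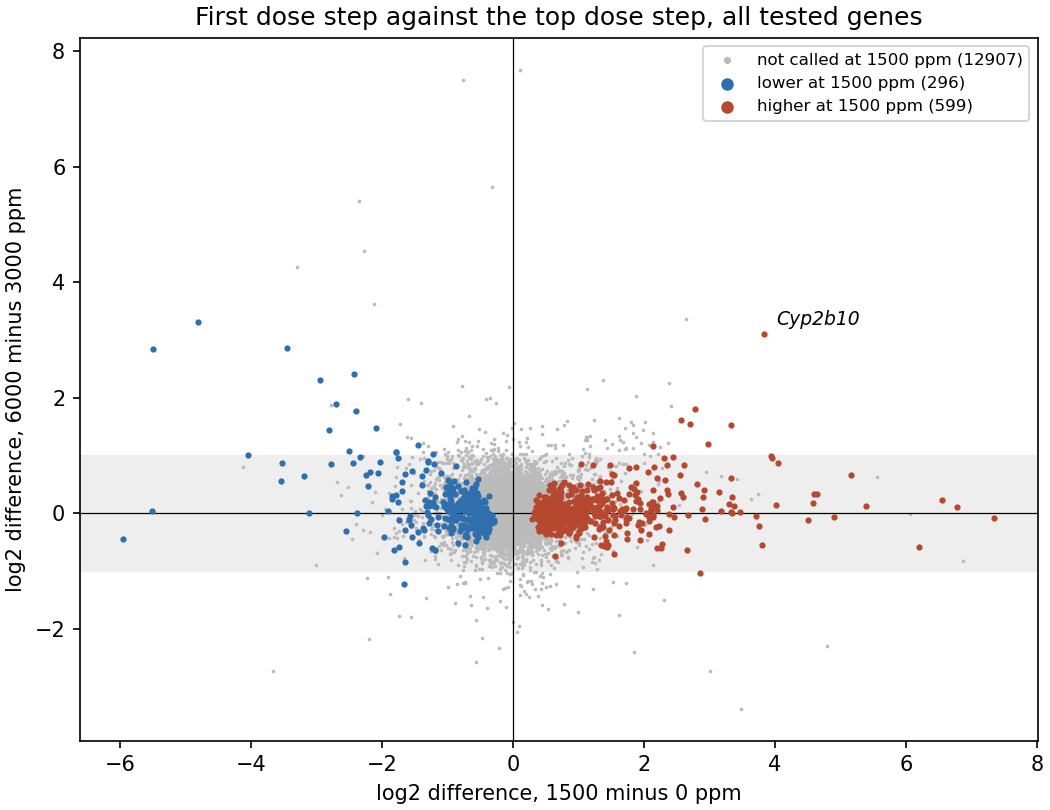
Each point is 1 of 13802 genes in frozen liver, with the log2 difference of 1500 from 0 ppm on the x axis and of 6000 from 3000 ppm on the y axis; red points are the 599 genes called higher and blue points the 296 called lower at 1500 ppm, and the grey band marks 2-fold. The coloured points spread widely along the x axis and lie mostly inside the band, with Cyp2b10 at 3.11 above it.

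Genes called at 3000 against 0 ppm can be placed the same way, but they share the 3000 ppm libraries with the top step, which pulls the 2 differences in opposite directions. Of 1127 raised genes, 87.7% were inside 2-fold, with a median top step of -0.10. Of 895 lowered genes, 78.3% were inside 2-fold, with a median top step of 0.22. These medians are given as values only.

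Behind the flat means, the 4 animals at 6000 ppm differed widely among themselves. Of the 599 genes raised at 1500 ppm, 363 (60.6%) were lower in 29B than in every animal at 3000 ppm, against 27.4% of all genes, and 26 were higher. In 8C the order was turned around: 320 (53.4%) were higher than in every 3000 ppm animal, against 23.8% of all genes, and 35 were lower. Animal 44A had 226 above (37.7%, against 23.2% of all genes) and 84 below (14%, against 24.3%), and 64C had 107 above (17.9%, against 17.2%) and 75 below (12.5%, against 19.8%). For the 296 genes lowered at 1500 ppm, 29B had 172 above the 3000 ppm range (58.1%, against 25.3% of all genes) and 30 below (10.1%, against 27.4%), and 8C had 23 above (7.77%, against 23.8%) and 133 below (44.9%, against 21.7%). One top-dose liver thus sat short of the 3000 ppm range in both directions and another beyond it, and the group mean lies between them.

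The PPAR alpha genes show this plainly. Ehhadh, the peroxisomal bifunctional enzyme of fatty acid oxidation, stood at 8980, 9422, 8128 and 9362 CPM in 35A, 67C, 71A and 9A, and at 4991, 12947, 11074 and 16029 CPM in 29B, 44A, 64C and 8C. Animal 29B was below all 4 animals at 3000 ppm and the other 3 were above all of them. The log2 difference of the means was 0.33 ± 0.42 (SE, 95% interval -0.56 to 1.21, adjusted p = 0.759), and without 29B it was 0.58 (adjusted p = 0.646). The gene was at 207 ± 183 CPM (SD, n = 4) in controls.

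Cyp4a14, a fatty acid omega-hydroxylase, gave 7204, 6946, 6740 and 7209 CPM at 3000 ppm and 4294, 8954, 7743 and 9499 CPM at 6000 ppm, again with 29B below and the other 3 above the whole 3000 ppm range. Its neighbour Cyp4a10 gave 4856, 4027, 4403 and 4583 CPM against 2859, 5630, 4835 and 6254 CPM, with 29B lowest and 64C inside the range. The top steps were 0.12 ± 0.78 and 0.13 ± 0.84 (log2 ± SE). The intervals of both reached past 2-fold on either side. Levels in controls, which enter the same estimate of the spread, ran from 0.688 to 131 CPM for Cyp4a14 and from 1.34 to 236 CPM for Cyp4a10. The part of controls and of 29B in the width of the intervals was not tested. Both genes belong to a family of close copies, so reads may be shared between members in the authors' counting.

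Cd36, the fatty acid transporter, gave 370, 516, 405 and 476 CPM at 3000 ppm and 119, 527, 512 and 607 CPM at 6000 ppm. Animal 29B was below and 44A and 8C were above the 3000 ppm range, and the difference of 0.00 ± 0.33 was inside 2-fold. Plin2, the coat protein of lipid droplets, gave 1389, 1386, 1220 and 1350 CPM and then 667, 1591, 1109 and 1868 CPM, a top step of -0.03 ± 0.31, with 29B and 64C below and 44A and 8C above the 3000 ppm range.

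Of 18 PPAR alpha genes given a place in the report by rule, 29B was below every 3000 ppm animal in 15, 8C was above every one in 16, 44A was above in 13, and 64C was above in 6 and below in 3. Over all genes the shares were 27.4% below in 29B, 23.8% above in 8C, 23.2% above in 44A, and 17.2% above and 19.8% below in 64C. Wide gaps in 29B were at Pdk4, the kinase that shuts off pyruvate dehydrogenase (18.9 CPM in 29B, 91.1 to 165 CPM at 3000 ppm), at Acot3, a peroxisomal acyl-CoA thioesterase (12.8 against 39.3 to 84.3 CPM), and at Mogat1, an acyltransferase of triglyceride synthesis (2.96 against 12.1 to 17.2 CPM). Cpt1b, a carnitine palmitoyltransferase, had the largest mean difference of the 18, 0.58 ± 0.39, with 7.84, 39.7, 22.8 and 45.1 CPM at 6000 ppm against 17.4, 13.4, 24.1 and 22.3 CPM. Ucp2, a mitochondrial carrier, was at 29.8, 22.6, 33.4 and 23.8 CPM against 26.1, 39.2, 47.7 and 44.5 CPM, a step of 0.52 ± 0.23 (adjusted p = 0.374).

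**Figure D2:**
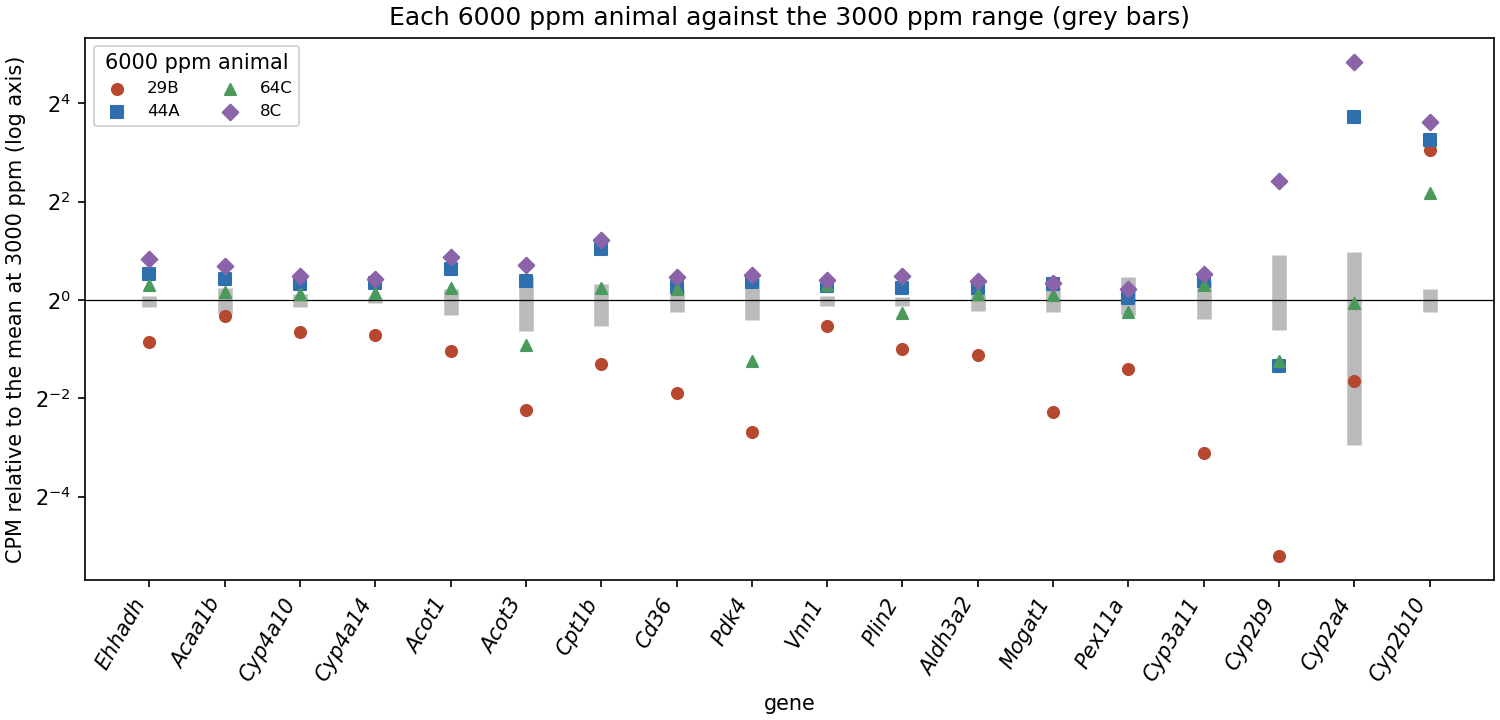
Level of fatty acid and cytochrome P450 genes in each of the 4 animals at 6000 ppm, in CPM relative to the mean at 3000 ppm on a log axis, with a grey bar for the range of the 4 animals at 3000 ppm. Animal 29B (circles) lies below the bar for most of the fatty acid genes and for Cyp3a11, while for Cyp2b10 all 4 animals lie above it.

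As lists, PPAR alpha responses had medians near 0 across the top step, over members and animals that went both ways. Of 27 tested genes of peroxisomal fatty acid oxidation, 22 were inside 2-fold, with a median of 0.01; of 26 of mitochondrial oxidation and ketogenesis, 23, with a median of 0.04; of 18 of peroxisome division and import, 18, with a median of -0.10; and of 36 other PPAR alpha responsive genes, 20, with a median of 0.01. Of 12 Cyp4 fatty acid hydroxylases 7 were inside 2-fold, with a median of 0.00. Over all tested genes 79% were inside 2-fold and the median was 0.01. The medians of the first 4 lists against 0 ppm had been 1.02, 1.00, 0.30 and 1.28 at 3000 ppm. At an unadjusted p under 0.05, 1 member of the peroxisomal oxidation list, 0 of the mitochondrial, 1 of the peroxisome division and 4 of the last list were higher, and 0, 1, 1 and 1 were lower. The shares over all genes were 6.25% higher and 6.4% lower. Without 29B the medians of the top step were 0.14, 0.17 and 0.19 for peroxisomal oxidation, mitochondrial oxidation and the other PPAR alpha genes, and no member was called. The column prefix as a term in the fit gave 0.18, 0.16 and 0.15.

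Fabp4, a fatty acid binding protein known best from fat cells and macrophages and a PPAR target, is the member of these lists with the largest top step, 2.15 ± 0.61 (adjusted p = 0.337). It gave 6.67, 12.8, 11.7 and 12.4 CPM at 3000 ppm and 7.48, 146, 23.3 and 17.7 CPM at 6000 ppm, so the size of the mean rests on 44A, and the FFPE libraries gave 3.83, 39.7, 6.83 and 8.14 CPM for the same 4 animals. Slc27a4, a fatty acid transport protein, was at 25.3 to 31 CPM and then at 29.8, 49.1, 35.4 and 48.8 CPM (0.51 ± 0.14). Fabp2, the intestinal-type fatty acid binding protein, went the other way, from 140, 155, 117 and 172 CPM to 79.3, 93.6, 136 and 108 CPM (-0.49 ± 0.23). These 3 were picked for naming after their values were seen.

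Cyp2b10 was the gene with the clearest further step. Cyp2b10 and its relatives Cyp2b9 and Cyp2a4 lie in 1 cluster of cytochrome P450 genes on chromosome 7, with Cyp2b10 at chr7:25897620-25926624 on the plus strand (GRCm38, GENCODE vM21). It was at 0.881, 0.945, 0.717 and 0.675 CPM in 35A, 67C, 71A and 9A, and at 6.63, 7.66, 3.64 and 9.91 CPM in 29B, 44A, 64C and 8C. The groups did not overlap, and 29B, low for the PPAR alpha genes, was here level with the others. The counts behind these levels were 71 over the 4 libraries at 3000 ppm and 629 over the 4 at 6000 ppm, a ratio of 8.95 after scaling (6.99 to 11.6 by counting error alone). Controls and 1500 ppm animals averaged 0.0278 and 0.545 CPM.

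The log2 difference of Cyp2b10 was 3.11 ± 0.54 (95% interval 1.97 to 4.25), and its adjusted p of 0.318 missed the threshold. The interval lay wholly outside 2-fold. It is not adjusted for the 13802 genes tested, of which Cyp2b10 had the smallest p, so it does not settle whether a plateau is excluded. Against 0 ppm the gene was called at all 3 doses, with log2 differences of 3.82, 4.38 and 7.49. Whether the top step was called differed between fits. The adjusted p was 0.0121 without 40A and 0.00918 in a fit of the 8 compared libraries alone, 9e-06 in DESeq2 on the same 16 libraries, and 0.00324 in the authors' other raw count table, which holds other counts and has no column of 40A. Leaving out each compared library kept the log2 difference between 2.89 and 3.32, with adjusted p between 0.12 and 0.811.

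Within prefix V12161 the difference for Cyp2b10 was 2.55 (29B against 71A) and within prefix H36450 it was 2.65 (44A against 67C and 9A), on the log2(CPM + 0.5) scale. With the prefix as a term it was 3.14 ± 0.72 with an adjusted p of 0.55. In FFPE tissue the step was 2.89 ± 0.42 (adjusted p = 0.0922), with the 4 libraries at 6000 ppm again all above the 4 at 3000 ppm.

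The other drug-metabolising genes did not share this pattern. Cyp3a11, the PXR marker, gave 2709, 3858, 3004 and 4674 CPM at 3000 ppm and 412, 4678, 4392 and 5125 CPM at 6000 ppm, a step of 0.04 ± 0.49, with 29B low by far and near the 114 to 303 CPM of the controls. Cyp2b9, another gene of the cluster and a close copy of Cyp2b10, gave 8.81, 10.4, 8.56 and 24.8 CPM and then 0.358, 5.16, 5.57 and 70.6 CPM. Its log2 difference of 0.63 ± 0.87 rested on 8C and was -1.84 without that animal. Cyp2a4, a steroid hydroxylase higher in female liver, gave 0.126, 0.822, 1.91 and 1.06 CPM and then 0.314, 12.9, 0.937 and 27.8 CPM (3.37 ± 0.95, adjusted p = 0.337), high in 44A and 8C only. Cyp2a4 has a near-identical neighbour, Cyp2a5, so its counts are uncertain. Cyp2c55 was at 2.20 to 5.57 CPM and then at 1.30, 7.39, 4.14 and 9.05 CPM (0.50 ± 0.42).

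Of 38 tested CAR and PXR target genes, 3 were higher and 3 lower at an unadjusted p under 0.05, near the 6.25% and 6.4% of all genes, 22 were inside 2-fold and the median top step was 0.04. The higher ones were Cyp2b10, Cyp2a4 and Gstm3, a glutathione transferase, and the lower ones Cyp2c37, Cyp2c54 and Sult1d1, 2 cytochromes P450 and a sulfotransferase. Without 29B the median was 0.24 with 8 higher and 3 lower.

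The start regions of the 4 cytochrome P450 genes that part company in animal 29B are printed here: Cyp2b10 was within the span of the other 3 top-dose animals there, while Cyp2b9, Cyp2a4 and Cyp3a11 were at their lowest of the 4. They are RefSeq start regions on GRCm38.p6, 250 bases before to 50 after the start, read 5′ to 3′ along each gene's own strand, at chr7:25897408-25897707 (plus), chr7:26173159-26173458 (plus), chr7:26306942-26307241 (plus) and chr5:145879805-145880104 (minus). Capitals mark the TATA box letters TATAAA and the nuclear receptor half-site AGGTCA, each searched on both strands.
Cyp2b10: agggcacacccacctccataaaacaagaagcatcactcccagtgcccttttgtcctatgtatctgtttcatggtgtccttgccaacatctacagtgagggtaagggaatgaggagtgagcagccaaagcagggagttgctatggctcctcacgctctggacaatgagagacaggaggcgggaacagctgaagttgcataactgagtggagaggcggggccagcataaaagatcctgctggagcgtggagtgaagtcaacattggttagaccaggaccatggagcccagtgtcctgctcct
Cyp2b9: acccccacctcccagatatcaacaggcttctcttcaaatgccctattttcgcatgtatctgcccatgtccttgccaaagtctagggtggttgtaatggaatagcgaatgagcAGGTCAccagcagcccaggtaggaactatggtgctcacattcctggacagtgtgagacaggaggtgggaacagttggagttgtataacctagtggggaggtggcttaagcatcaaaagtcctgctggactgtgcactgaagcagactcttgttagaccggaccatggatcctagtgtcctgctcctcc
Cyp2a4: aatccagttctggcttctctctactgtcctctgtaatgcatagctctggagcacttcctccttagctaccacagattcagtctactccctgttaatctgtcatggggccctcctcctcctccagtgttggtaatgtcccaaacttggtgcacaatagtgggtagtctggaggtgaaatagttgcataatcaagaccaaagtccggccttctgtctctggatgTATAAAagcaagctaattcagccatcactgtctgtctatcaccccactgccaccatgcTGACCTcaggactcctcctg
Cyp3a11: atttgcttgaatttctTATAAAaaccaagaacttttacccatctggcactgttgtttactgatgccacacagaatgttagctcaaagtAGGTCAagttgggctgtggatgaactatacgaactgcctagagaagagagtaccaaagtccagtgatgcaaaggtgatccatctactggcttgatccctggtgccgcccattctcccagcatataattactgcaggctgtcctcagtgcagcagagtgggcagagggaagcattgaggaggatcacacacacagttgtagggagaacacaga

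TATAAA was found in Cyp2a4 and Cyp3a11, and AGGTCA in Cyp2b9, Cyp2a4 and Cyp3a11. Position was not weighed: TATAAA of Cyp3a11 lies at the upstream end of its window. The match of Cyp2a4 to AGGTCA, printed as TGACCT, lies after the start. Neither was found in the Cyp2b10 window. Over all 32851 start regions in the table, 13.6% hold TATAAA and 16.3% hold AGGTCA. Of 58 named genes, 45 had a start region in the table, 6 of them with TATAAA and 12 with AGGTCA. The direct repeat AGGNCANAGGNCA, the form of the element that PPAR alpha binds as a pair with RXR, was in 0.381% of all start regions and in 1 of the 45, Gdf15. An E-box, CACGTG, was in 7.15% of all start regions and in 5 of the 45. A match is a description of the letters, and the phenobarbital-responsive enhancer known for Cyp2b10 lies upstream of this window.

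**Figure D3:**
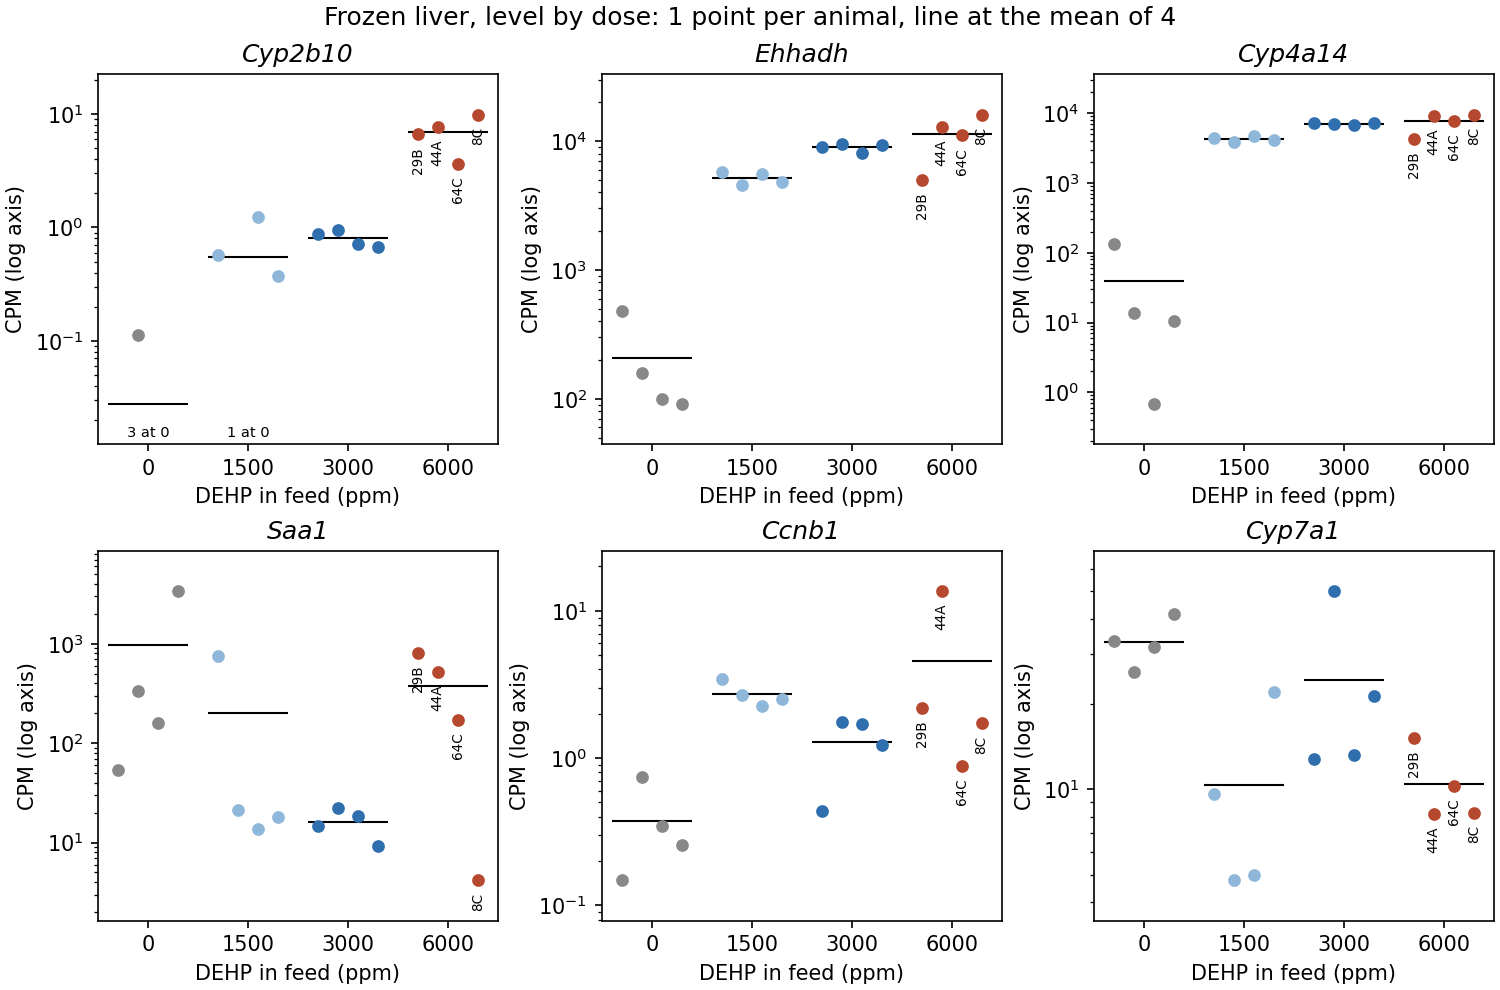
Level in CPM (log axis) of 6 genes in the 16 frozen livers by DEHP dose in the feed, with 1 point per animal and a line at the mean of the 4; animals at 6000 ppm are labelled and libraries at 0 are counted at the foot. Cyp2b10 steps up in all 4 animals at 6000 ppm. Ehhadh and Cyp4a14 lie below the whole 3000 ppm range in 29B and above it in the other 3 animals at 6000 ppm. At that dose Saa1 is high in 3 of 4 animals, and Ccnb1 is high in 44A.

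Cell cycle genes stood highest at 6000 ppm in 1 animal, 44A. Mki67, a protein of dividing cells, was at 5.54, 9.65, 12.1 and 11.1 CPM at 3000 ppm and at 11.8, 52.9, 6.45 and 12.3 CPM at 6000 ppm. Ccnb1, the mitotic cyclin B1, was at 0.441, 1.77, 1.71 and 1.22 CPM and then at 2.20, 13.5, 0.882 and 1.72 CPM. Top2a, a topoisomerase of S and G2 phase, was at 2.96, 7.35, 7.33 and 6.84 CPM and then at 5.15, 23.8, 4.36 and 5.79 CPM. In each of these, 44A alone was far above the 3000 ppm animals.

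Of 48 tested cell cycle genes, 16 were higher and 0 lower at an unadjusted p under 0.05, beside 6.25% and 6.4% of all genes, and the median top step was 0.86. Without 44A the count was 2 higher and 1 lower of 47 and the median 0.10, while it was 10 higher without 35A, 25 without 64C and 27 without 29B. Within prefix V12161, which holds 29B and 71A, the median difference was 0.05, and within prefix H36450, which holds 44A, it was 1.37. Against 0 ppm, edgeR called 5 cell cycle genes higher at 1500 ppm, 2 at 3000 ppm and 29 at 6000 ppm. Without 44A it called 17 at 1500 ppm, 11 at 3000 ppm and 7 at 6000 ppm. The FFPE libraries gave a median top step of 0.42. In 5 of the 48, against 2.72% of all genes, all 4 animals at 6000 ppm were above the whole 3000 ppm range. Mcm2 and Mcm5, parts of the helicase loaded before DNA replication, were among them: Mcm2 at 2.73, 4.69, 3.80 and 3.12 CPM against 1.60 to 2.10 CPM (0.93 ± 0.27), and Mcm5 at 1.93, 5.04, 2.31 and 2.49 CPM against 1.47 to 1.89 CPM (0.87 ± 0.30, adjusted p = 0.337). The step of Mcm5 without 44A was 0.48.

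Acute phase genes, which code for plasma proteins made by the liver, were lowest against 0 ppm at 3000 ppm. EdgeR called 10 of 29 lower at 1500 ppm, 18 at 3000 ppm and 10 at 6000 ppm, none higher, with medians of -1.01, -1.56 and -0.88. The medians at 1500 and 6000 ppm were thus alike, but the single animals were not. The list's median difference from the 3000 ppm mean was 0.65, 0.19, 0.09 and 0.04 in the 1500 ppm animals. It was 0.1, -0.03, 0.24 and -0.28 in the 3000 ppm animals. In 29B, 44A, 64C and 8C it was 1.03, 1.05, 0.7 and -0.3. The step back thus rests on 29B, 44A and 64C, which lay above every animal at 1500 and 3000 ppm, while 8C lay below them all. At 6000 against 3000 ppm, 10 were higher and 1 lower at an unadjusted p under 0.05 (6.25% and 6.4% of all genes), none was called, and the median was 0.68, against 0.01 for all genes. The contrasts share the 3000 ppm libraries. FFPE tissue gave a median of 0.70.

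Saa1, serum amyloid A, was at 14.5, 22.1, 18.6 and 9.16 CPM in the 3000 ppm animals and at 812, 522, 170 and 4.16 CPM in 29B, 44A, 64C and 8C. In 3 animals the level was above and in 1 below the whole 3000 ppm range, giving a difference of 4.55 ± 1.58 (adjusted p = 0.337). The 4 controls ran from 53.7 to 3362 CPM, so the gene also varied among animals without DEHP, and 1 animal at 1500 ppm was at 754 CPM. Its close copy Saa2 followed the same order of animals, 757, 550, 71.8 and 2.13 CPM against 4.85 to 9.96 CPM. High in the same 3 animals were Lcn2, an iron-carrier binding protein (84.5, 96.0, 21.9 and 1.63 CPM against 1.60 to 3.54 CPM), and Orm2, an orosomucoid (52.5, 66.9, 38.4 and 2.22 CPM against 1.60 to 4.31 CPM). Itih4, an inter-alpha-trypsin inhibitor chain, was at 2029, 1574, 1133 and 624 CPM against 524 to 891 CPM (0.90 ± 0.31). The member that was lower was Hamp, the iron hormone hepcidin, at 81.9, 24.2, 55.4 and 37.0 CPM against 60.7 to 211 CPM (-1.13 ± 0.39). Without 8C the list had 19 members higher and 2 lower, with a median of 0.93, and without 29B it had 5 higher and 1 lower, with a median of 0.49. Without 44A or without 9A it had 6 higher. Against 0 ppm, 4 members were called lower at 6000 ppm without 44A and 3 without 8C.

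Markers of Kupffer cells, the resident macrophages of the liver, also stood higher, without passing the adjusted test. Of 14 tested markers, 9 were higher and 0 lower at an unadjusted p under 0.05, against 6.25% and 6.4% of all genes, and the median top step was 0.61 (0.56 in FFPE). Clec4f, a lectin restricted to Kupffer cells, was at 48.0, 48.3, 70.9 and 38.1 CPM and then at 81.6, 83.8, 81.3 and 64.9 CPM (0.60 ± 0.21, adjusted p = 0.337), with 8C inside the 3000 ppm range. Cd163, the haemoglobin scavenger receptor, was at 7.93, 10.0, 10.2 and 6.16 CPM and then at 19.6, 20.5, 17.7 and 11.7 CPM, with no overlap (1.02 ± 0.25, adjusted p = 0.337 in edgeR and 0.0495 in DESeq2). The summed level of the 14 markers was 225, 199, 416 and 155 CPM at 3000 ppm and 373, 441, 336 and 284 CPM at 6000 ppm, so 71A was as high as the top-dose animals. It was 217 to 360 CPM in controls, and no marker was called at any dose against 0. Within prefix V12161 the median difference was -0.09 and within prefix H36450 it was 1.35. Without 71A, 13 of 14 were higher, with a median of 1.02, and without 67C, 9A or 44A in turn 5 were, and without 35A or 29B 6. In bulk tissue, more cells of a type and more RNA per cell cannot be told apart, and the part of these cells in the acute phase values was not tested.

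Of the other cell types, 15 sinusoidal endothelium markers had a median top step of 0.10 and all 15 were inside 2-fold. Of 16 stellate cell and fibroblast markers, 2 were higher, Col1a1 and Col3a1, both collagens, and the median was 0.16. Col1a1 was at 1.70, 2.63, 3.70 and 2.49 CPM and then at 5.29, 8.13, 4.91 and 7.06 CPM, without overlap (1.26 ± 0.31, adjusted p = 0.337 in edgeR and 0.0495 in DESeq2). The medians were -0.31 for 6 bile duct markers, -0.19 for 5 lymphocyte markers, 0.81 for 4 neutrophil markers and 0.52 for 6 red blood cell markers, and 1 exocrine pancreas gene was at -0.25. No marker of muscle or fat passed the filter on low counts.

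**Figure D4:**
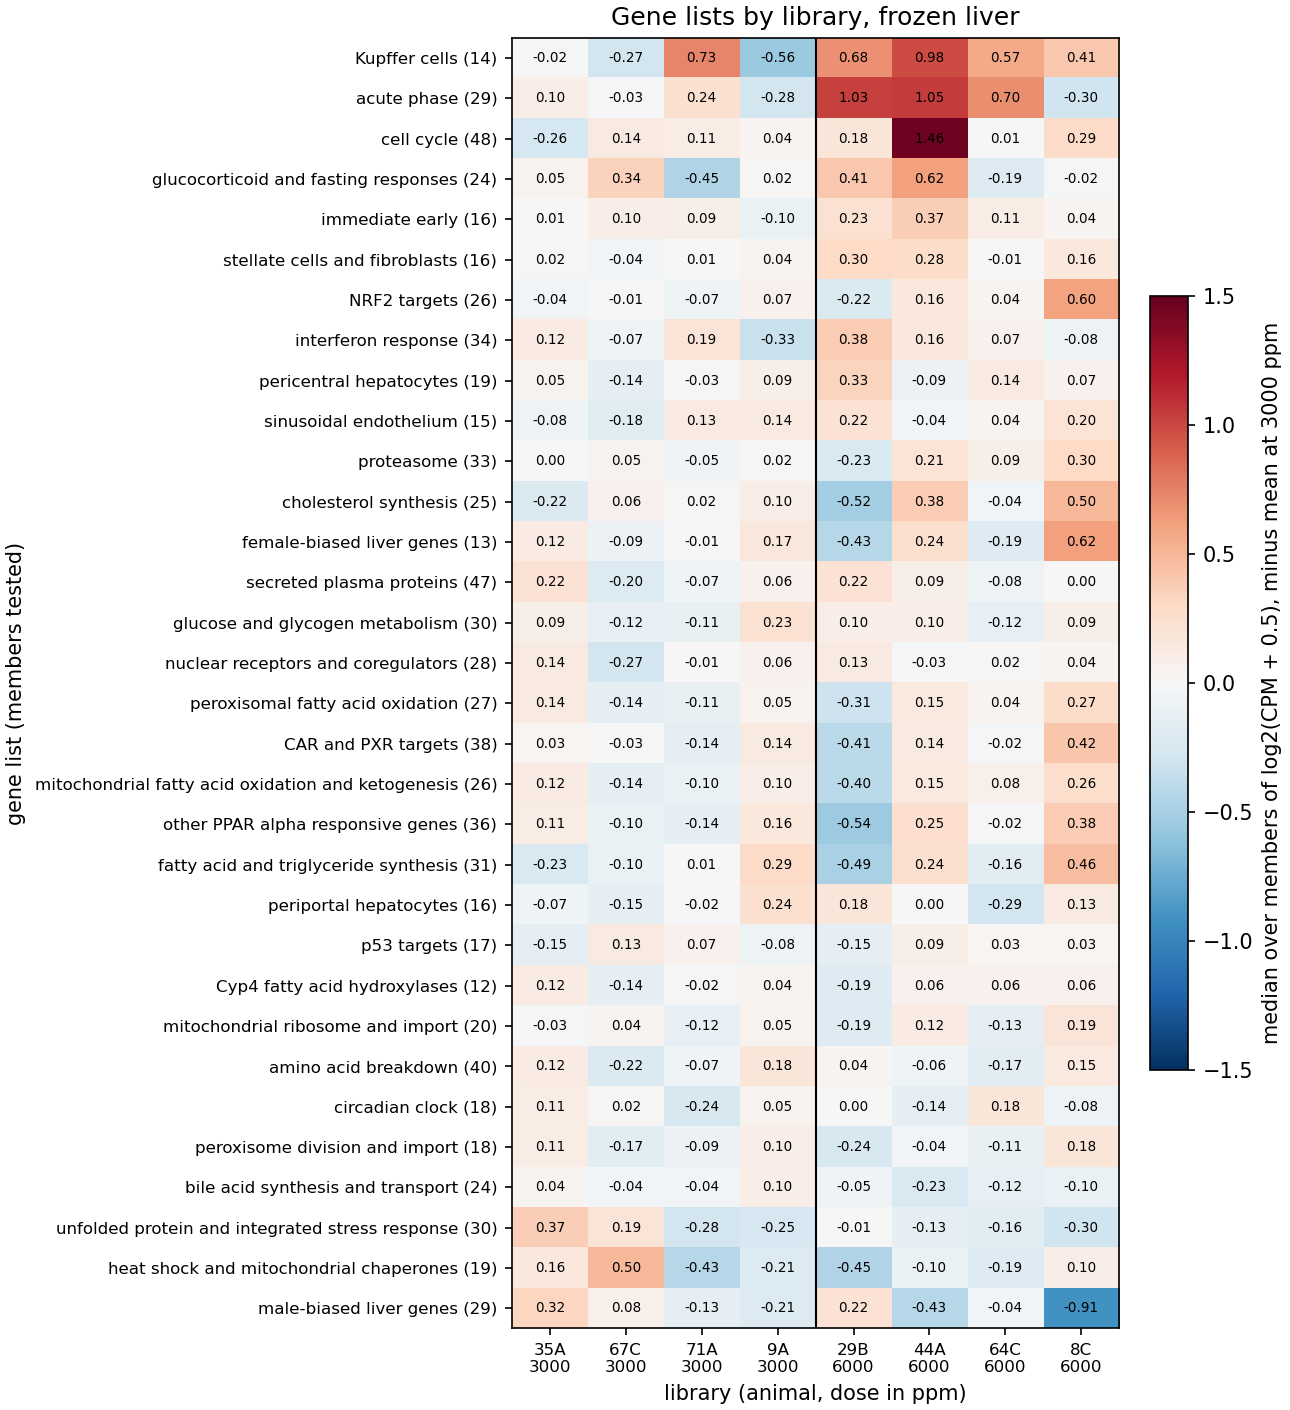
Each cell is the median, over the tested members of a gene list (at least 10), of log2(CPM + 0.5) in 1 library minus the mean of the 4 libraries at 3000 ppm; columns are the 8 compared animals, and lists are ordered by their mean at 6000 ppm. Animal 44A stands out for the cell cycle (1.46), 8C is the 1 top-dose animal without higher acute phase values (-0.30) and the lowest for male-biased genes (-0.91), and 29B is low across fatty acid and cholesterol lists.

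Of 24 tested bile acid genes, 0 were higher and 4 lower at an unadjusted p under 0.05, against 6.25% and 6.4% of all genes, and 21 were inside 2-fold. The median of -0.14 lay inside the quartiles of all genes, and it was -0.06, with 1 higher and 3 lower, without 9A. Cyp7a1, which controls the first step from cholesterol to bile acids, was at 12.8, 49.8, 13.3 and 21.4 CPM at 3000 ppm and at 15.1, 8.21, 10.2 and 8.28 CPM at 6000 ppm (-1.22 ± 0.46, adjusted p = 0.338). The difference was -0.58 without 67C, the highest animal. The other 3 were Akr1d1, a reductase of the same pathway (-0.62 ± 0.16), Baat, which conjugates bile acids (-0.36 ± 0.10, all 4 animals below those at 3000 ppm), and Slc10a1, which takes bile acids up from blood (-0.37 ± 0.13). Cyp8b1, which sets the share of cholic acid, was inside 2-fold at -0.15 ± 0.19.

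Genes of male and female liver differed among the top-dose animals. Of 29 male-biased genes, 0 were higher and 3 lower at an unadjusted p under 0.05, against 6.25% and 6.4% of all genes, and none was called. The 3 were Mup3, Ugt2b1 and Mup7. The median of the list was -0.28. It was -0.10 without 8C, -0.10 without 35A and -0.45, with 12 lower, without 29B. The 13 female-biased genes had a median of 0.01, with 29B at -0.43 and 8C at 0.62 from the 3000 ppm mean. Mup20, a major urinary protein from a family of close copies, was at 3848, 4301, 2980 and 3054 CPM and then at 2878, 3198, 3029 and 1479 CPM (-0.42 ± 0.24). The values without each of the other libraries had between 1 and 5 lower. Serpina12, the secreted inhibitor vaspin, was at 12.6, 9.90, 7.49 and 11.2 CPM and then at 27, 1.56, 3.75 and 0.498 CPM, with 29B above and the other 3 below every 3000 ppm animal. Its mean difference was -0.32 ± 0.68, and -2.43 without 29B (adjusted p = 0.103). Without 44A, 64C or 8C it was 0.03, -0.09 and 0.07. Controls were at 139 ± 26.8 CPM (SD, n = 4).

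Amino acid and urea cycle genes showed small steps. Otc, the mitochondrial urea cycle enzyme ornithine transcarbamylase, was at 440, 410 and 440 CPM in 35A, 71A and 9A, with a group mean of 448 CPM, and then at 332, 276, 328 and 342 CPM, with no overlap (-0.49 ± 0.11, adjusted p = 0.337 in edgeR and 0.0115 in DESeq2). It was 442 CPM on average in controls. Cps1, the enzyme before it, was at 2936, 3163, 2782 and 3387 CPM and then at 2431, 2204, 1893 and 3013 CPM (-0.36 ± 0.15). Of 40 amino acid breakdown genes, 1 was higher and 6 lower at an unadjusted p under 0.05, against 6.25% and 6.4% of all genes, and 39 were inside 2-fold. The 6 were 1 without 44A, 4 without 64C and 3 without 9A. Glul, the glutamine synthetase of hepatocytes around the central vein, was flat at 529 to 589 CPM and 543 to 609 CPM (0.04 ± 0.11).

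Proteasome genes were tightly measured: all 33 were inside 2-fold, 7 were higher and 0 lower at an unadjusted p under 0.05 (6.25% and 6.4% of all genes), and the median top step was 0.13, after 0.39 at 3000 against 0 ppm. EdgeR called 19 of the 33 higher than 0 at 3000 ppm and 28 at 6000 ppm, against 8.17% and 7.05% of all genes. The 28 were 16 without 8C and 17 without 44A, while the median from 0 ppm went from 0.51 to 0.40 and 0.49 and the calls over all genes from 973 to 593 and 604. The 7 were 14 without 29B, 4 without 44A and 2 without 8C. NRF2 targets, the oxidant defence genes, had a median of 0.17 with 5 of 26 higher and 0 lower (9 higher without 29B, 2 without 71A or 44A, 1 without 8C); Nqo1, a quinone reductase, was at 2.14 to 4.72 CPM and then at 2.69, 6.10, 4.30 and 9.32 CPM (0.54 ± 0.31).

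Lipid synthesis genes had wide spreads at both doses. Fasn, fatty acid synthase, was at 721, 962, 950 and 1741 CPM and then at 738, 1670, 776 and 2963 CPM (0.49 ± 0.50). Scd1, the desaturase, was at 8698 to 25440 CPM and then at 15868 to 29348 CPM (0.19 ± 0.32), and Hmgcs1, an early enzyme of cholesterol synthesis, was at 812 to 1242 CPM and then at 515, 1555, 903 and 1640 CPM (0.14 ± 0.32). The list medians were 0.09 over 31 fatty acid and triglyceride genes and 0.07 over 25 cholesterol genes. Pck1, the control point of gluconeogenesis, was at 569, 436, 284 and 604 CPM and then at 1668, 621, 885 and 391 CPM (0.91 ± 0.46, adjusted p = 0.413), highest in 29B and lowest in 8C.

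By the rule for naming genes when fewer than 5 are called, the 6 of smallest unadjusted p in each direction were taken among genes averaging 2 or more in log2 CPM. All 12 had an adjusted p of 0.337 in edgeR, and all but Nars2 were called by DESeq2 (adjusted p between 0.00617 and 0.0495). The higher ones were Emilin1, an extracellular matrix glycoprotein (0.63 ± 0.12), Ltbr, the lymphotoxin beta receptor (0.50 ± 0.10), Mvp, the major vault protein (0.68 ± 0.15), Col4a2, a basement membrane collagen (0.82 ± 0.19), Aprt, which salvages adenine (0.65 ± 0.15), and Gas6, a ligand of TAM receptors (0.59 ± 0.14). The lower ones were Nmd3, an export adaptor of the large ribosomal subunit (-0.55 ± 0.11), Crebzf, a leucine zipper factor (-0.46 ± 0.10), Otc, Nars2, a mitochondrial asparaginyl-tRNA synthetase (-0.43 ± 0.10), Ythdf3, a reader of methylated RNA (-0.49 ± 0.11), and Acvr2a, an activin receptor (-0.42 ± 0.10).

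Emilin1 was at 8.87, 7.76, 7.17 and 7.72 CPM at 3000 ppm and at 13.2, 13.8, 10.7 and 11 CPM at 6000 ppm, and at 12.6 CPM on average in controls. Ltbr was at 26.2, 22.3, 28 and 26.8 CPM and then at 37.5, 38.1, 32.5 and 38.0 CPM, with 38.5 CPM in controls. In both, 3000 ppm was below 0 ppm in edgeR (adjusted p = 0.00133 and 0.00167). At 6000 ppm the levels were near control (adjusted p = 0.836 and 0.716 in edgeR). The 2 comparisons share controls. Both genes were also chosen by their rise from 3000 to 6000 ppm, which favours genes low in the 3000 ppm libraries. The comparison of 3000 with 0 ppm is therefore no separate test of a step back. Mvp differed in shape: 22.8 CPM in controls and at 1500 ppm, 23, 19.6, 19.1 and 21.7 CPM at 3000 ppm, and 28.4, 41.3, 31.6 and 31.8 CPM at 6000 ppm. Nmd3 was at 20.1, 25.6, 19 and 20.6 CPM and then at 12.8, 15.7, 15.8 and 14.2 CPM. The 12 were chosen on the frozen libraries, so their separation there is a description. In FFPE tissue, from the same mice, their unadjusted p lay between 0.00147 and 0.09 in edgeR, and Gas6 and Nars2 did not overlap.

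**Figure D5:**
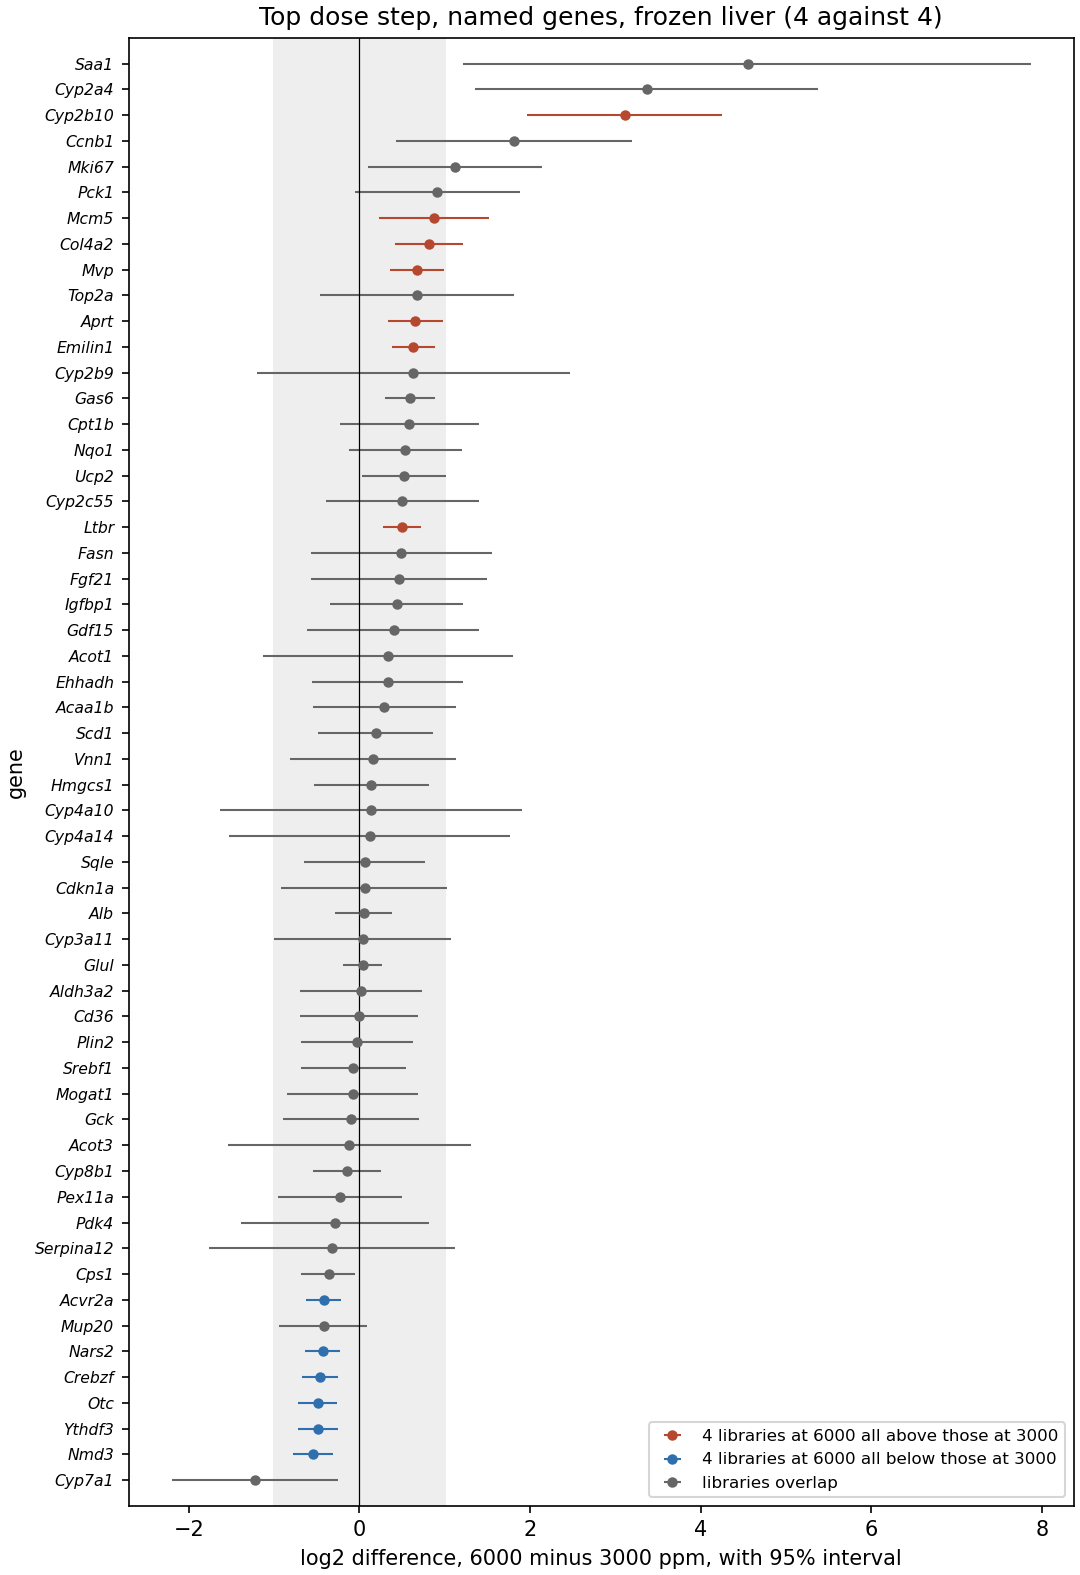
The log2 difference of 6000 from 3000 ppm in frozen liver with its 95% interval for the named genes, red or blue where the 4 libraries of each dose do not overlap; the grey band marks 2-fold. Cyp2b10, Cyp2a4 and Saa1 are the genes whose whole interval lies outside the band, and the PPAR alpha genes lie around 0 with intervals of unequal width.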

How the data were processed

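RNA of 16 frozen and 16 FFPE DEHP livers was sequenced. Per the submitters' processing notes the tools were CASAVA, STAR 2.4 and RSEM with mm10. The deposited table holds the authors' expected counts, not normalised, for 18877 genes, rounded here to whole numbers. Columns were matched to animals by name. Depth is given in the report and limits low genes most.

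All 16 frozen libraries were fitted together in edgeR 4.0.16 (R 4.3.3, limma 3.58.1) by dose group, after filterByExpr (minimum count 10) and TMM scaling; the quasi-likelihood test was 2-sided, Benjamini-Hochberg adjusted over all genes, with genes called at an adjusted p under 0.05. The SE is the log2 difference divided by the square root of F, and 95% intervals come from it. FFPE libraries were fitted the same way. P values rest on the spread between animals within dose groups, estimated over all 16 libraries of a preparation, with 4 animals a group.

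The comparison, the 39 gene lists and the naming rule were chosen with earlier results of these data known. The rule took the 10 largest called rises and falls (or, with fewer than 5, the 6 of smallest unadjusted p) at a mean log2 CPM of at least 2, from each list its 2 called genes with the lowest adjusted p (none was called), and a fixed set of 48 genes, of which Fabp3 and Cidea did not pass the filter. Predicted, Rik and clone symbols were passed over. List members named besides were picked after their values were seen.

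Alternatives were DESeq2 1.42.0, its size factors, upper-quartile factors, other filters, the other raw count table (31 libraries), the 2 groups alone, a replicate block, the column prefix as a term, stricter thresholds and leaving out libraries. Fits without 40A, without 40A and 29B, a 1.5-fold width, and lists refitted without single libraries or with the prefix were chosen after seeing the data. The RPKM and FPKM tables and the DCA samples were not used here. Values of 2 genes of the fixed set are not reported here.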

Additional observations from a re-analysis of the deposited data

Results flagged for a closer look

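Dixon's 95% critical share of the whole range was applied to 116 groups of 4 (58 named genes at 3000 and at 6000 ppm, frozen). In 11 of them, the gap from 1 animal to the nearest of the other 3 passed it. About 1 group in 20 would pass for independent values with a normal spread. CPM were not shown to have such a spread, and several flags fall on the same animal. An excess over that rate was therefore not established. At 6000 ppm, 44A was the highest for Mki67 (52.9 CPM), Top2a (23.8 CPM) and Ccnb1 (13.5 CPM), all genes of dividing cells. Animal 8C was the highest for Cyp2b9 (70.6 CPM, others 0.358 to 5.57 CPM) and for Fgf21, a fasting hormone (17.4 CPM, others 4.36 to 6.57 CPM). Animal 29B was the lowest for Cyp3a11 (412 CPM, others 4392 to 5125 CPM) and the highest for Serpina12 (27 CPM, others 0.498 to 3.75 CPM). Animal 64C was the lowest for Ltbr (32.5 CPM, others 37.5 to 38.1 CPM). At 3000 ppm, 67C was the highest for Ythdf3 (190 CPM, others 130 to 138 CPM), 9A the highest for Cyp2b9 (24.8 CPM, others 8.56 to 10.4 CPM) and 35A the lowest for Top2a (2.96 CPM, others 6.84 to 7.35 CPM).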

How the results depend on the processing

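The count of 0 genes called in frozen liver held under DESeq2 size factors, upper-quartile factors, both filters, the column prefix as a term, the stricter thresholds, without 35A and 8C and without any 1 compared library (0 to 0). It was 20 in DESeq2, 1 in the other raw count table, 2 with only the compared groups, 1 without 40A and 3 without 40A and 29B. In FFPE tissue it was 1 in DESeq2, and leaving out 1 library gave 0 to 1, the 1 being without 67C. The replicate block (the number in the titles, over the 12 treated libraries) gave 0 calls with a smallest adjusted p of 0.454; same-numbered animals did not deviate together (r -0.37 to -0.10), so the numbers do not pair them.

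Of 599 genes raised at 1500 ppm, 510 were inside 2-fold. This was 337 of 407 in the other raw count table, 271 of 332 with the prefix as a term, 309 of 368 without 40A, 141 of 229 at a fold of at least 2 and 192 of 222 at an adjusted p under 0.01, and 412 to 606 without 1 library. Of 296 lowered, 230 were inside; under those settings in the same order this was 89 of 118, 43 of 59, 99 of 126, 27 of 89 and 27 of 35. It was 373 of 476 in DESeq2, 149 of 196 without 40A and 29B, 134 of 296 at a width of 1.5-fold (346 of 599 raised) and 153 to 228 without 1 library, lowest without 9A.

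Over 58 named genes and 22 alternatives, 17 of 1276 values passed the threshold, 11 of them in DESeq2 for genes of the naming rule. Cyp2b9 reversed to -1.98 without 35A and 8C and to -1.84 without 8C, with 1 library left out at a time giving -1.84 to 1.13. In 27 genes the sign changed under at least 1 alternative, otherwise with 0 inside both intervals. With 4 animals a group, 2897 of 13802 genes have intervals that reach past 2-fold.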
